A study of Mus musculus with 6 samples.

Results

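The death-associated protein kinases DAPK1, DAPK2 and DAPK3, the related kinase STK17B (also called DRAK2), the death-associated protein DAP and the death domain-associated protein DAXX were followed here as mRNAs. They were taken by gene symbol: every probe set that the platform annotation assigns to exactly 1 gene, that gene being Dapk1, Dapk2, Dapk3, Stk17b, Dap or Daxx. This gave 11 probe sets of 6 genes, out of 45037 probe sets on each array and 18193 genes named in this way. Stk17b had 3 probe sets, Dapk1, Dapk3 and Dap had 2 each, and Dapk2 and Daxx had 1 each.

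The arrays compared control and CNOT3-depleted (CNOT3KD) primary mouse embryonic fibroblasts (MEFs) to ask which transcripts are stabilized without CNOT3. By the study's account the MEFs carried floxed alleles of CNOT3 and were infected with either a mock retrovirus (control, genotype given as wild type in the labels) or a retrovirus expressing Cre recombinase, which removes the floxed segment. All cultures thus shared the floxed alleles, a retroviral infection and 2 days of puromycin selection, and the infected cells were a selected population rather than a clone. RNA was taken without treatment (0 h) or after transcription had been blocked with actinomycin D (Act. D) for 6 h or 12 h, with 1 Affymetrix GeneChip array for each of the 6 conditions. How many embryos stood behind each culture is not stated in these sources.

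The DAP kinases are serine/threonine kinases, some of them regulated by calcium and calmodulin. The family is known for membrane blebbing through phosphorylation of myosin light chain, for autophagy and for several forms of cell death. DAP is a small protein known as a negative regulator of autophagy, and DAXX is a nuclear protein that deposits histone H3.3 together with ATRX and was first found as a partner of the death receptor Fas. CNOT3 is a subunit of CCR4-NOT, the deadenylase complex that shortens poly(A) tails and so starts the decay of many mRNAs, among them short-lived ones.

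The values are MAS5 signals, a measure of the intensity of a probe set on a linear scale, which the authors brought to nearly the same trimmed mean on every array (494.1 to 497.2). The fold at 0 h is the CNOT3KD signal over the control signal, and a fold of more than 1.5 in either direction was counted. The signal left at 6 h or 12 h is given as a percentage of what the same culture had at 0 h. Because every array has the same trimmed mean, signal left is relative to the mRNA that remained, and mRNAs that outlasted the others have values above 100%. Stabilization compares these fractions between the cultures, as log2 of the CNOT3KD fraction left over the control one, averaged over 6 h and 12 h. A probe set is called bright here where its untreated signals averaged, as log2 values, no less than the median of all probe sets, and dim otherwise. Stabilized is used of a probe set that met 3 conditions: it was bright, its CNOT3KD signal at 6 h was 0.5 to 2.0 times the untreated one, and both at 6 h and at 12 h the fraction left in CNOT3KD MEFs was 2.0 or more times the fraction in the control culture. A signal below the 25th percentile of its array (13.6 to 19.8) was taken as near background, and a ratio against it is given as a bound. With 1 array per condition there is no replicate check of any difference below, the number of arrays limits the precision, and no spread can be set against the order of the levels of a gene.

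Several facts of the arrays bear on all values. Cnot3 itself had a signal of 436 in control and 239.6 in CNOT3KD MEFs at 0 h, 1.82-fold lower, whereas another Cnot3 probe set was 1.11-fold higher, and the sources used here do not place either of them relative to the floxed segment. The 12 fibroblast markers had a summed signal of 119876 to 182235 in control and 125129 to 131786 in CNOT3KD MEFs, with none of them more than 1.5-fold different at 0 h. The 7 epithelial markers had a summed signal of 995 to 1196 in control and 2427 to 2851 in CNOT3KD MEFs, with 5 of 7 more than 1.5-fold higher at 0 h. Of these 5, Cdh1 and Krt14 were near background in control MEFs at 0 h (8.4 and 9.9), and Krt8 had 51.2 there, below the array median. The largest signals were those of Krt18 (419 in control, 862 in CNOT3KD MEFs at 0 h) and Krt19 (495 and 1157). Epcam and Krt5 were not higher (1.06-fold and 1.04-fold). The 10 macrophage and other leukocyte markers had a summed signal of 2509 to 5247 in control and 3695 to 5217 in CNOT3KD MEFs. At 0 h the leukocyte sum was 2509 in control and 3695 in CNOT3KD MEFs, with 3 markers more than 1.5-fold higher (Cd68 2.06-fold, Tyrobp 1.93-fold and Cd14 1.51-fold) and 2 lower, Itgam and Aif1, both of them near background in control and in CNOT3KD MEFs at that time. The 7 markers of T and B lymphocytes, where STK17B is known to be abundant, had a summed signal of only 150 to 157 and 74.5 to 109, all below the array median at 0 h, and the 6 endothelial markers had 242 to 340 and 248 to 317, with Tie1 near background on every array. The part of other cell types in the results was not tested, and in such bulk RNA fewer cells of a type and less RNA per cell cannot be told apart. When the arrays were scaled to 104 probe sets of cytosolic ribosomal proteins instead, the median over all 45037 probe sets moved by 0.16 for the log2 fold at 0 h and by 0.63 for log2 stabilization, so where this or another scaling turns the direction of a member's value, the turned value is given with it.

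Dapk1 was the only kinase of the DAPK family proper whose mRNA met both rules. Its brighter probe set (1426915_at) had signals of 215, 70.7 and 17.96 in control MEFs and 478, 340 and 338 in CNOT3KD MEFs, in the order 0, 6 and 12 h, which is kept from here on. All 3 CNOT3KD signals lay above all 3 control signals, and the control signal at 12 h was near background. The fold was 2.22 at 0 h, 4.81 at 6 h and at least 18.8 at 12 h.

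The signal left for this Dapk1 probe set in the control culture was 32.8% at 6 h and no more than 8.35% at 12 h. In CNOT3KD MEFs it was 71.2% and 70.7%. The fraction left was thus 2.17 times that of control at 6 h, just past the limit of 2.0, and at least 8.47 times at 12 h. The log2 stabilization was at least 2.10, and under quantile normalization the 6 h values became 50.2% and 88.0% and the probe set no longer met the rule.

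The other Dapk1 probe set (1427358_a_at, whose suffix marks a probe set shared by transcripts of the same gene) had signals of 57.4, 48.0 and 47.3 in control and 128, 106 and 68.3 in CNOT3KD MEFs. Its 3 control signals lay below the median of their arrays. Its fold at 0 h, 2.23, was close to that of the brighter probe set, and its fold was 2.22 at 6 h and 1.45 at 12 h. Its decay was unlike that of the brighter one: 83.7% and 82.4% of the signal was left in control MEFs and 83.1% and 53.3% in CNOT3KD MEFs. Its log2 stabilization of -0.32 became 0.31 with ribosomal protein scaling. The Dapk1 probe sets therefore gave the same size of difference before Act. D and different time courses after it, and the annotation gives different cDNA sequences as their sources.

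Dapk2, a calmodulin-regulated kinase best known from blood cells, was dim in these fibroblasts. Its probe set (1451453_at) had signals of 27.6, 40.1 and 48.7 in control and 35.6, 47.4 and 47.2 in CNOT3KD MEFs, below the array median on all 6 arrays though never near background. The fold was 1.29 at 0 h, 1.18 at 6 h and 0.97 at 12 h, none of them past 1.5, and the last, a log2 ratio of -0.04, became 0.30 with quantile normalization, 0.24 with median scaling and 0.83 with ribosomal protein scaling. The signal left was 145% and 176% in control MEFs and 133% at both times in CNOT3KD MEFs, a log2 stabilization of -0.27 that became 0.36 with ribosomal protein scaling.

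Dapk3, also called ZIPK, which phosphorylates myosin light chain and its phosphatase, had nearly equal signals in both cultures before Act. D. The brighter probe set (1423446_at) had 189, 135 and 124 in control and 188, 155 and 199 in CNOT3KD MEFs. The fold was 0.9996 at 0 h, 1.15 at 6 h and 1.60 at 12 h. As log2 ratios, the 0 h value of -0.001 became 0.05 with quantile normalization, 0.09 with median scaling and 0.16 with ribosomal protein scaling, and the 6 h value of 0.20 became -0.06 with quantile normalization. The signal left was 71.6% and 65.9% in control and 82.2% and 106% in CNOT3KD MEFs, a log2 stabilization of 0.44 that does not meet the rule. On the deposited scale the cultures thus parted mainly at 12 h, where the CNOT3KD signal was above its own 6 h value. With ribosomal protein scaling the log2 ratio was already 0.90 at 6 h, with 55.4% left in control and 92.7% in CNOT3KD MEFs. The log2 stabilization was then 1.07, and the rule was still not met.

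The dimmer Dapk3 probe set (1456496_at) had signals of 26.0, 32.97 and 37.98 in control and 42.2, 40.2 and 49.1 in CNOT3KD MEFs. It was 1.62-fold higher at 0 h and 1.22-fold and 1.29-fold higher at 6 h and 12 h, but it lay below the array median on all 6 arrays. Its log2 stabilization of -0.37 became 0.26 with ribosomal protein scaling. The Dapk3 probe sets disagreed on the fold at 0 h and on the sign of stabilization, and the brighter one is used for the gene.

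Stk17b, which encodes a kinase known for setting the threshold of antigen receptor signalling in lymphocytes and for inducing apoptosis when overexpressed, had the highest log2 stabilization of the 6 genes at their brightest probe sets. The brightest probe set (1423452_at) had signals of 1782, 141 and 95.3 in control and 3819, 2789 and 2464 in CNOT3KD MEFs. Every CNOT3KD signal lay above the untreated control signal, and the control signals at 6 h and 12 h were far below it. The fold of 2.14 at 0 h widened to 19.8 at 6 h and 25.8 at 12 h.

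Of the Stk17b signal, 7.90% and 5.35% was left at 6 h and 12 h in the control culture, most of the loss lying within the first 6 h. In CNOT3KD MEFs 73.0% and 64.5% was left. The log2 stabilization was 3.40, at the 99.5 percentile of all bright probe sets, and it was positive under every scaling tried.

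A Stk17b probe set drawn from the same sequence (1450997_at) gave the same picture after Act. D but a smaller difference before it. Its signals were 975, 41.8 and 34.7 in control and 1243, 951 and 917 in CNOT3KD MEFs. The fold was 1.27 at 0 h, which does not pass 1.5, then 22.7 at 6 h and 26.4 at 12 h. With 4.29% and 3.56% left in control against 76.5% and 73.7% in CNOT3KD MEFs, its log2 stabilization of 4.26 stood at the 99.9 percentile. These probe sets share their source sequence and are not independent measurements of the gene.

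The last Stk17b probe set (1430165_at), from another sequence, went the other way. Its signals were 70.7, 57.1 and 58.3 in control and 59.98, 33.7 and 4.04 in CNOT3KD MEFs, the last of them near background, and the probe set was dim. It was 1.18-fold lower at 0 h, 1.69-fold lower at 6 h and at least 4.30-fold lower at 12 h. The signal left was 80.7% and 82.4% in control MEFs but 56.2% and at most 22.6% in CNOT3KD MEFs. With that bound the log2 stabilization was at most -1.19, and -2.07 with the near-background signal as measured. The sources used here do not say which transcript of the locus this probe set reads.

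**Figure D1:**
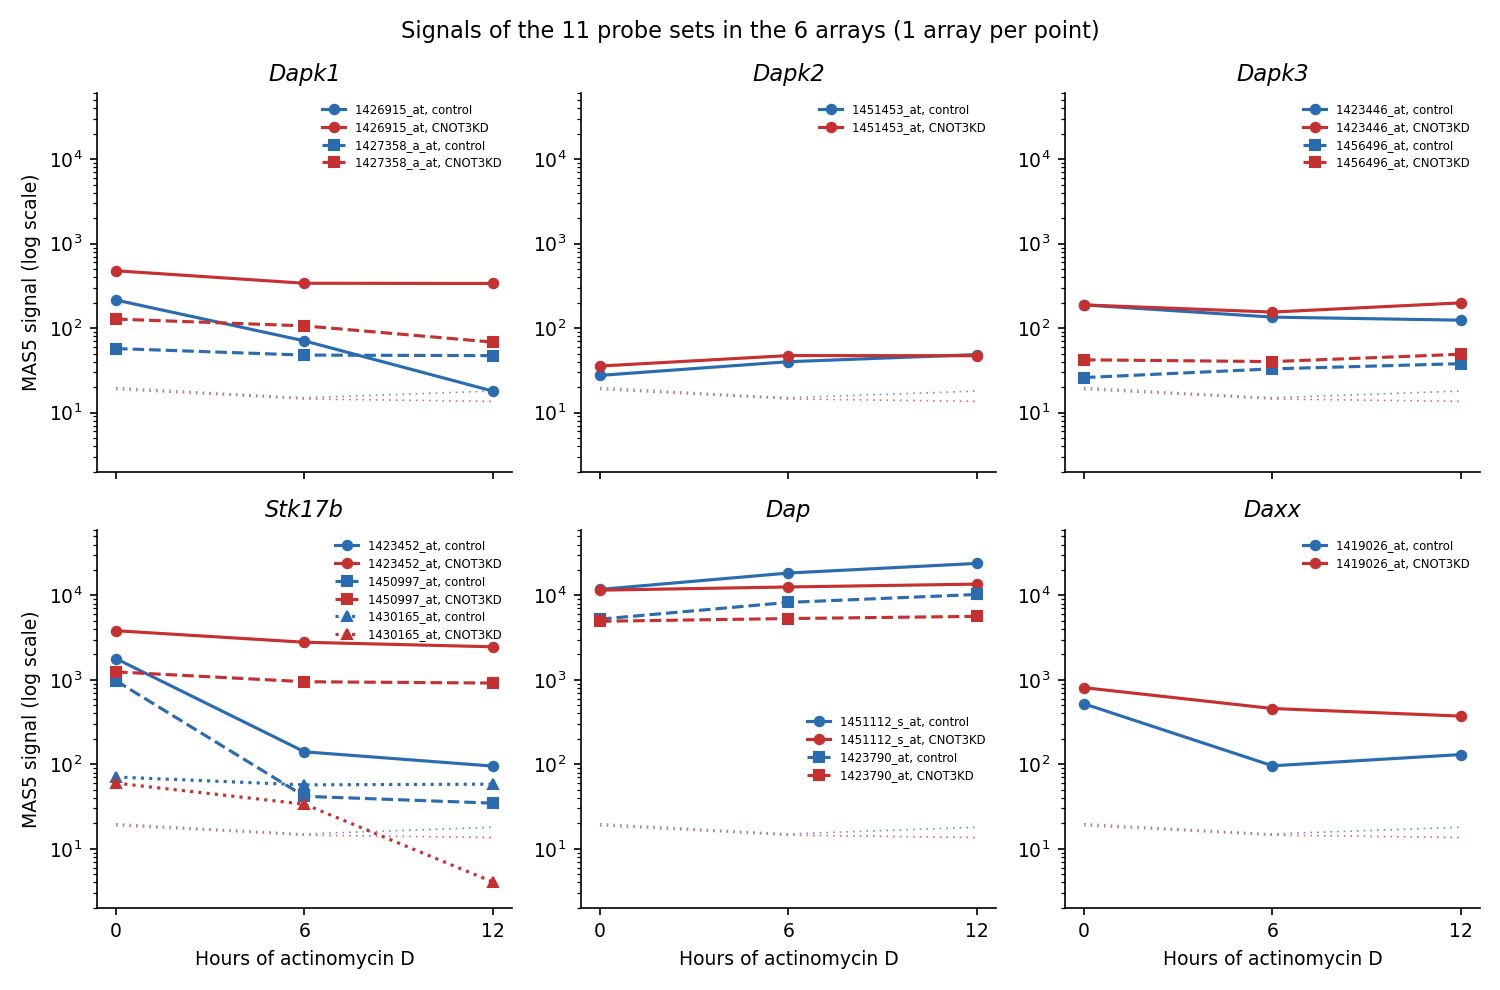
MAS5 signals (log scale) of the 11 probe sets against hours of Act. D, 1 panel for each gene, with control MEFs in blue, CNOT3KD MEFs in red and 1 array per point; the faint dotted lines are the 25th percentile of each array, below which a signal was taken as near background. The 2 brighter Stk17b probe sets part by 19.8-fold or more at 6 h, whereas both Dap probe sets are higher in control MEFs after Act. D, a difference nearly gone with ribosomal protein scaling.

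The mRNA of Dap was a lasting one in both cultures. The brighter probe set (1451112_s_at, whose suffix marks probes shared by several sequences) had signals of 11776, 18408 and 23928 in control and 11533, 12589 and 13610 in CNOT3KD MEFs. The other (1423790_at), drawn from the same cDNA, had 5236, 8272 and 10259 in control and 4941, 5321 and 5650 in CNOT3KD MEFs. On both, the signal went up with time in each culture, and more so in control MEFs.

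At 0 h the Dap folds were 0.98 and 0.94, log2 ratios of -0.03 and -0.08 that became 0.13 and 0.08 with ribosomal protein scaling and 0.06 and 0.00 with median scaling. At 12 h the signal was 1.76-fold and 1.82-fold lower in CNOT3KD than in control MEFs, log2 ratios of -0.81 and -0.86 that became 0.07 and 0.02 with ribosomal protein scaling. The signal left was 156% and 203% for the brighter probe set in control MEFs and 109% and 118% in CNOT3KD MEFs, a log2 stabilization of -0.65, and -0.67 for the other. With ribosomal protein scaling, however, the brighter Dap probe set had 121% and 126% left in control and 123% and 120% in CNOT3KD MEFs, and the log2 stabilization was -0.02 and -0.03. The lower Dap signal in CNOT3KD MEFs after Act. D is thus a value relative to the other mRNAs on the array, and it was nearly gone when ribosomal protein mRNAs were taken as the reference.

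Daxx had more than 1.5-fold more signal in CNOT3KD MEFs at all 3 times. Its probe set (1419026_at) had signals of 521, 96.1 and 131 in control and 809, 458 and 372 in CNOT3KD MEFs. The control signal at 12 h was above that at 6 h, whereas the CNOT3KD signal went down at each step. The fold was 1.55 at 0 h, just past 1.5, then 4.77 at 6 h and 2.85 at 12 h.

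For Daxx 18.4% and 25.04% of the signal was left in control MEFs and 56.6% and 46.0% in CNOT3KD MEFs. The fraction left was 3.07 times that of control at 6 h but 1.84 times at 12 h, so Daxx missed the rule at 12 h, with a log2 stabilization of 1.25. It met the rule with ribosomal protein scaling (log2 stabilization 1.88), with median scaling and when only 6 h was used. Of the 3 genes more than 1.5-fold higher at 0 h, Daxx was the one closest to the limit.

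**Figure D2:**
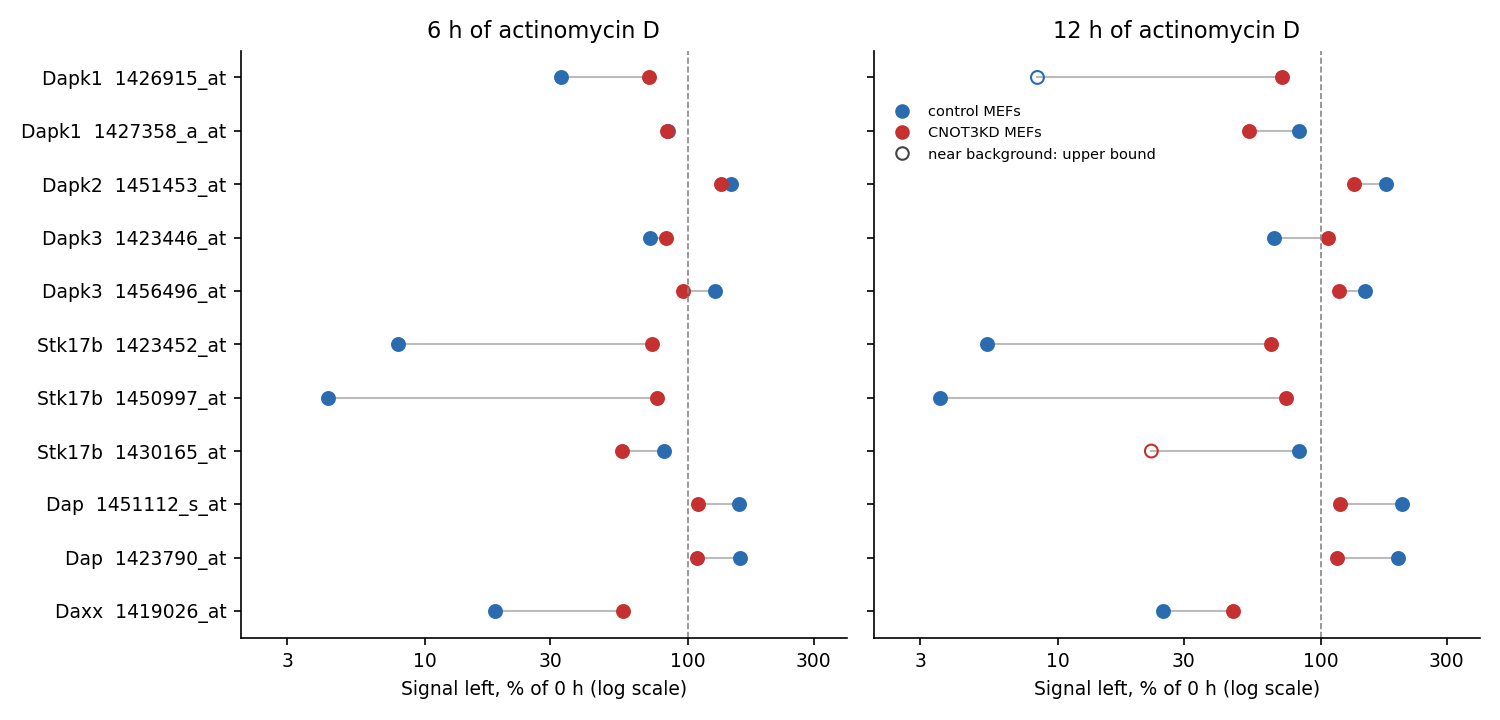
Signal left at 6 h and 12 h of Act. D in percent of the signal at 0 h (log scale) for each of the 11 probe sets, control MEFs in blue and CNOT3KD MEFs in red, with open circles for upper bounds where the later signal was near background. The gap is widest for Stk17b 1450997_at (3.56% against 73.7% at 12 h), and the order of the cultures is the opposite for Dap (203% against 118% at 12 h), a difference nearly gone with ribosomal protein scaling.

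Counted over the members, at 0 h the CNOT3KD signal exceeded 1.5 times the control signal on 4 of the 8 bright probe sets, beside 9.46% of all 22519 bright probe sets. They were both Dapk1 probe sets, 1 of Stk17b and that of Daxx. The dimmer Dapk1 probe set had a control signal of 57.4 at 0 h, below the array median of 77.4. It counted as bright only with its higher CNOT3KD signal of 128 averaged in, so its place in this count depends on the culture where it was higher. None of the 8 was more than 1.5-fold lower, beside 11.7% of all. Among the 3 dim member probe sets 1 was higher and 0 lower, where 27.8% and 32.6% of all 22518 dim probe sets were, so that the Dapk3 probe set in question is within what dim signals commonly gave.

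The stabilization rule was met by 3 of the 8 member probe sets (1 of Dapk1 and 2 of Stk17b), beside 8.89% of all bright probe sets. With the cultures exchanged, so that control MEFs would have to hold more signal, it was met by 0 of 8, beside 0.857% of all. Both higher at 0 h and stabilized were 2 of 8, beside 0.924% of all. At the level of genes, each read at its brightest probe set, 3 of 6 were more than 1.5-fold higher (19.5% of all 18193) and 2 of 6 stabilized (6.44% of all). These counts are of 6 genes, several read by probe sets of the same sequence, and they are a description of the arrays. The study's own functional groups of autophagy, cytoskeleton and cell death genes, which hold Dapk1, Daxx and Stk17b, were chosen on these same arrays and are not independent evidence of their direction.

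The medians of the 8 bright member probe sets were 0.49 for the log2 fold at 0 h and 0.84 for log2 stabilization, beside -0.01 and 0.04 over all bright probe sets. The control culture had a median signal left of 52.2% and 45.5%, the CNOT3KD culture one of 79.4% and 72.2%, where all bright probe sets had 83.8% and 73.9% and 95.0% and 91.4%. The medians of the members were thus lower than those of all bright probe sets in both cultures.

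**Figure D3:**
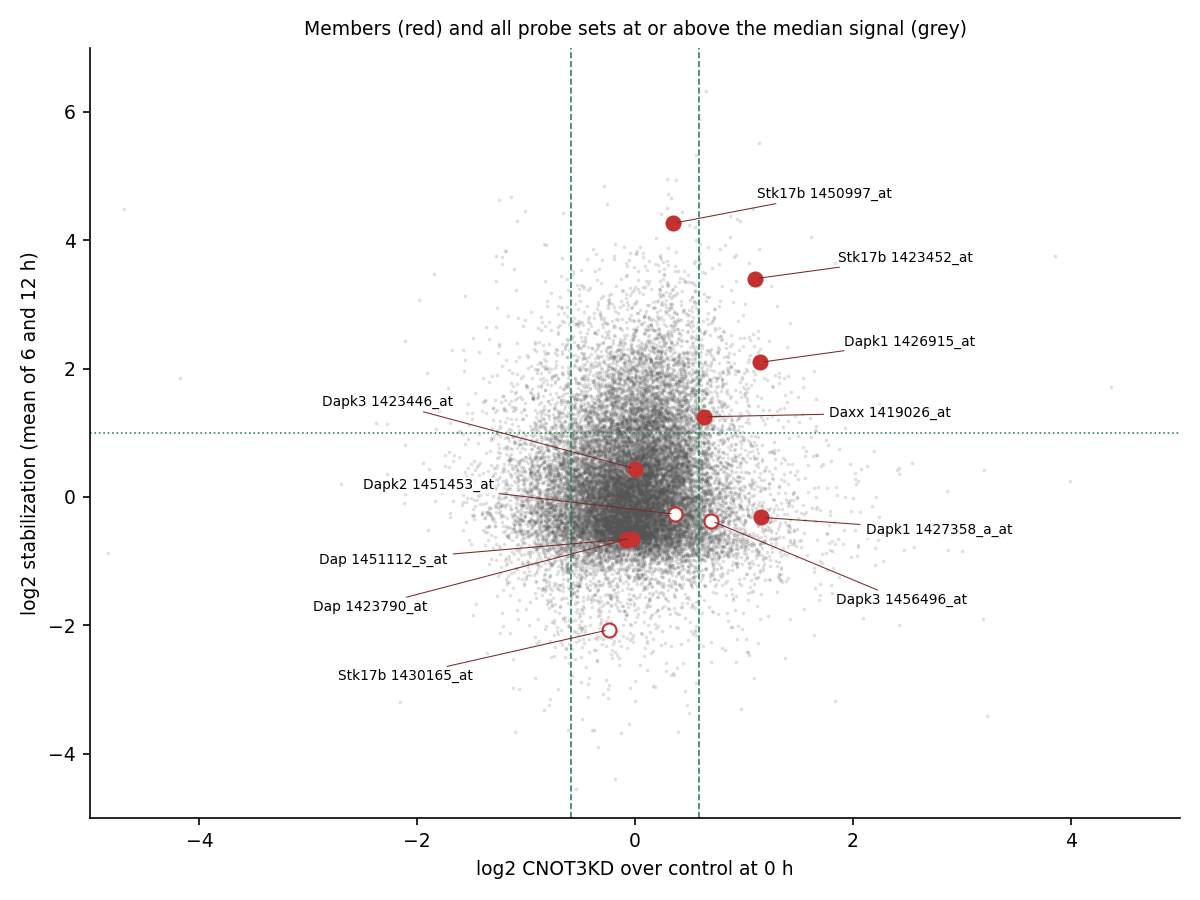
Log2 fold of CNOT3KD over control at 0 h (x axis) against log2 stabilization (y axis) for the members in red, open where dim, over all 22519 bright probe sets in grey; dashed lines mark 1.5-fold and the dotted line a log2 stabilization of 1. Stk17b 1423452_at (3.40), Dapk1 1426915_at (at least 2.10) and Daxx (1.25) lie at the upper right. The dotted line is on the mean of 6 h and 12 h, so Daxx lies above it though it missed the stabilization rule at 12 h. The slightly negative values of Dapk2 and of the dimmer Dapk1 and Dapk3 probe sets turn positive with ribosomal protein scaling.

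Of 23 listed regulators and substrates of the DAP kinases, 16 were measured, all on bright probe sets. At 0 h 0 were more than 1.5-fold higher, beside 9.46% of all bright probe sets and 19.5% of all genes. More than 1.5-fold lower was 1, beside 11.7% of all bright probe sets. It was Rps6ka3, which encodes the kinase RSK2, with 1462 in control and 835 in CNOT3KD MEFs, 1.75-fold lower. Next in size were Klhl20, the adaptor of a ubiquitin ligase of DAPK1, at 1.30-fold higher, and Mib1, another ubiquitin ligase of DAPK1, at 1.27-fold lower. The median log2 fold of the list was 0.10.

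Of those 16 genes, 3 met the stabilization rule, beside 8.89% of all bright probe sets and 6.44% of all genes, and none of the 3 differed by 1.5-fold at 0 h. Pawr, whose product PAR-4 is a partner of DAPK3, had 26.7% and 11.3% left in control and 116% and 119.5% in CNOT3KD MEFs. Ppp1r12a, the myosin phosphatase subunit that DAPK3 phosphorylates, had 25.7% and 20.6% left in control and 99.99% and 91.0% in CNOT3KD MEFs. Prkd1, protein kinase D, a known target of DAPK1, had 42.5% and 18.2% left in control and 95.9% and 99.7% in CNOT3KD MEFs. The median log2 stabilization of the list was -0.26. The myosin light chains Myl9 (-0.68), Myl12a (-0.56) and Myl12b (-0.73), substrates named as examples after their values were seen, had negative values close in size to the shift of 0.63 that ribosomal protein scaling gives, and no direction is read from them.

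Of 16 listed partners of DAXX, 14 were measured, 13 of them on bright probe sets. At 0 h 3 were above 1.5-fold, near the 19.5% of all genes. Lower were 3, all bright, beside 11.7% of all bright probe sets. Neither count is read as a result about the partners. Fas, the death receptor, was 2.48-fold higher at 0 h, with 198 in control and 492 in CNOT3KD MEFs. The others above 1.5-fold were Mdm2 (1.53-fold), a ubiquitin ligase of p53, and Sp100, a nuclear body protein whose control signal was near background. Lower were Hipk2, a nuclear kinase (1.76-fold), H3f3a, a gene of histone H3.3 (1.60-fold, and open to cross-hybridization with near-identical copies), and Dnmt1, the maintenance DNA methyltransferase (1.53-fold). Mdm2, Sp100 and Dnmt1 fall outside the naming rule and were named to complete these counts.

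The stabilization rule was met by 1 of the 14 partners of DAXX, near the share of all genes (6.44%), so the count is no result about the partners. Usp7, a deubiquitinase that binds DAXX and MDM2, had 41.3% and 32.3% left in control and 83.4% and 77.2% in CNOT3KD MEFs. Pml, the scaffold of the nuclear bodies that recruit DAXX, had 46.0% and 29.4% against 70.2% and 61.0%. Map3k5, which encodes the kinase ASK1, had at most 21.4% and at most 25.5% left in control and 49.1% and 19.5% in CNOT3KD MEFs, so only 6 h gives an order. The chaperone partner Atrx had 2957 in control and 2977 in CNOT3KD MEFs at 0 h, a fold of 1.01, and was added as an example after its value was seen. The medians of the list were -0.02 for log2 fold and -0.13 for log2 stabilization.

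All 5 other proteins first called death-associated were measured, and 1 was more than 1.5-fold higher at 0 h. That is near the 19.5% of all genes, so the count is no result about these proteins. Dedd2, a death effector domain protein, was 2.07-fold higher, with 63.2 in control and 131 in CNOT3KD MEFs. Dedd was 1.35-fold higher, Dap3, a mitochondrial ribosomal protein, 1.21-fold higher, and Dapl1, the relative of Dap, 1.44-fold lower on a dim probe set. Of the 4 that were bright and so could meet the stabilization rule, 0 did, beside 8.89% of all bright probe sets, too few genes for a result. The median log2 stabilization of the 5 was -0.11.

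Of 21 other calcium/calmodulin-dependent and related kinases, 20 were measured, but only 12 on bright probe sets. At 0 h 6 were more than 1.5-fold higher, beside 19.5% of all genes, and 4 lower. Of the 6 higher genes 3 were dim, as were all 4 lower ones, and among all dim probe sets 27.8% were higher and 32.6% lower. The largest differences that could be named by rule were lower ones: Dclk2 (3.81-fold), Camk2b (1.99-fold) and Mylk3 (1.82-fold). Eef2k, the kinase that phosphorylates elongation factor 2, was 1.56-fold higher, with 70.6% and 21.5% left in control against 98.9% and 87.9% in CNOT3KD MEFs. Mapkapk5 had 54.7% and 27.6% left against 89.5% and 88.7%. None of the 12 bright ones met the stabilization rule, which dim probe sets cannot meet, beside 8.89% of all bright probe sets. With so few genes the 0 is not read as a difference from that share. The medians of the list were 0.05 for log2 fold and 0.17 for log2 stabilization. The stabilization medians of these 4 lists all lie within the shift of 0.63 that ribosomal protein scaling gives, so their signs are not read.

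**Figure D4:**
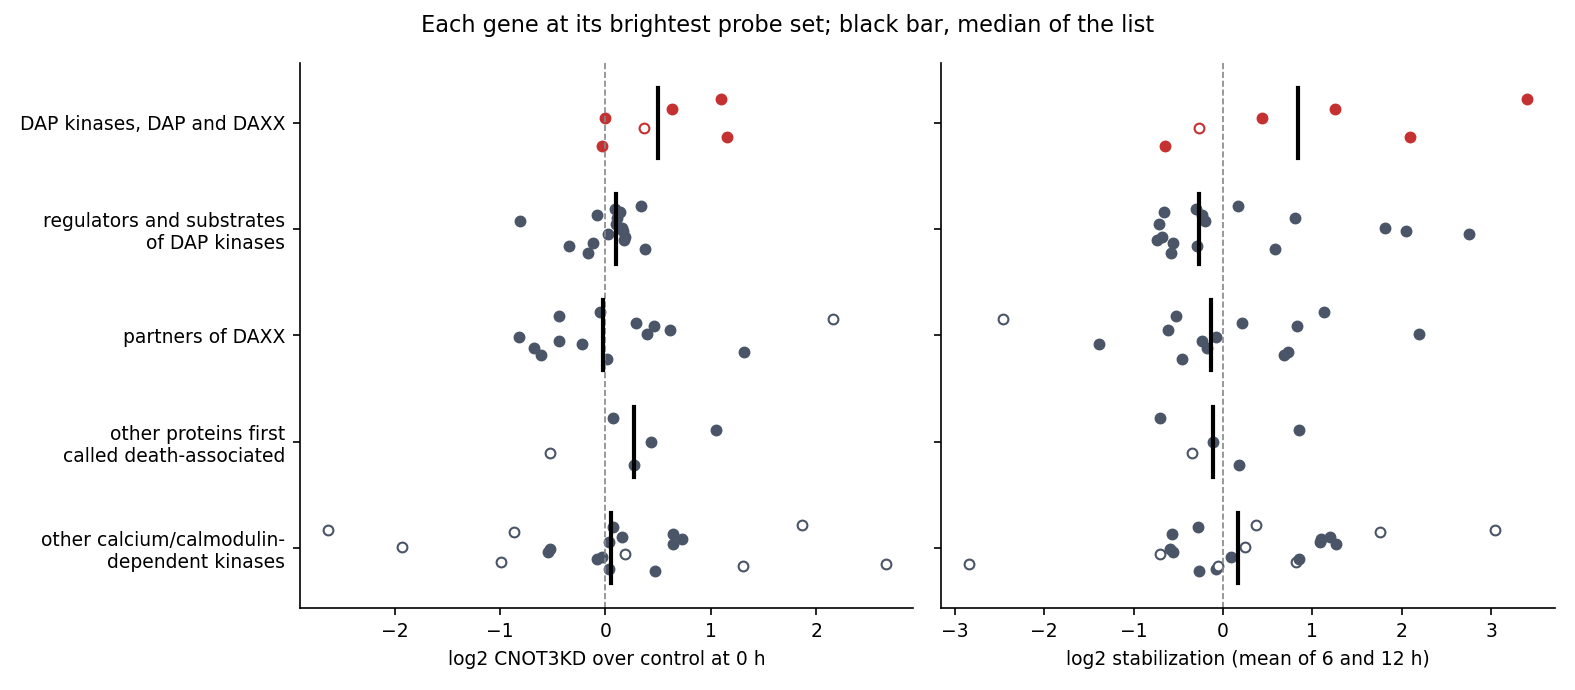
Log2 fold of CNOT3KD over control at 0 h (left) and log2 stabilization (right) of each gene at its brightest probe set, by gene list, open where dim; black bars are medians. The 6 members have medians of 0.50 and 0.84 and spread from -0.65 (Dap, -0.02 with ribosomal protein scaling) to 3.40 (Stk17b) in stabilization.

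The genes whose pattern over the 6 arrays was nearest to each member were found by the Euclidean distance between log2 signals, after each probe set's own mean was subtracted, among 11394 genes at or above the median mean signal. For Dapk1 they were Pex14 (0.36), Otulinl (0.39) and Brwd3 (0.40), and for Stk17b they were Acbd3 (0.58), Eid2 (0.66) and Mat2b (0.74). Acbd3 had 2452, 141 and 143 in control and 3693, 2874 and 2715 in CNOT3KD MEFs. No gene lay closer to Stk17b than 0.58, the longest of the nearest distances of the 6 members.

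For Daxx the nearest were Id2 (0.23), Zgpat (0.25) and Prkd2 (0.26). Id2, an inhibitor of basic helix-loop-helix transcription factors, had 18.1% and 27.1% left in control MEFs and 55.5% and 38.5% in CNOT3KD MEFs. In control MEFs Zgpat had 17.7% and 24.4% left and Prkd2 20.3% and 27.2%. The upturn between 6 h and 12 h that they have in common with Daxx follows from their selection by distance. For Dapk3 the nearest were Cpne2 (0.17), Fndc10 (0.20) and Yars (0.20). For Dap they were Rcn3 (0.05), Septin11 (0.05) and Serpinf1 (0.06), and for Dapk2 Dtd1 (0.04), Letmd1 (0.10) and Cotl1 (0.13). Dap and Dapk2 thus had neighbours at a much shorter distance than Dapk1 and Stk17b, whose values vary over a wider range.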

How the data were processed

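The deposited intensity values are MAS5 signals for each probe set, computed by the authors from GeneChips hybridized with biotin-labelled cRNA; neither the MAS5 version nor its scaling target is given in the sources used here. Total RNA of MEFs was measured in 6 conditions with 1 array each, so no error or p-value is given. Groups were taken from the labels. Signals under 1 would have been set to 1, which applied to 0 values. Of 45037 probe sets, 34945 name 1 gene in the platform annotation, 932 several and 9160 none. No coordinates or sequences are given. Folds, signal left and stabilization were computed with Python 3.11.15, numpy 2.4.6 and pandas 2.3.3, and plotted with matplotlib 3.10.9. The rules for counting were run on simulated arrays with little noise and large changes planted in brighter probe sets. Such a run checks the code and does not tell how often the rules err on the real arrays.

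Each gene was read at its brightest probe set by mean log2 signal. Named were all members and Cnot3, in each list the 3 genes with the largest absolute log2 fold at 0 h and the 3 with the largest stabilization among genes with both 0 h signals at or above the 25th percentile, and the 3 genes nearest in pattern to each member; exceptions are stated. The members and lists were chosen with earlier results of these data known. Genes of the lists with no probe set naming them alone were not analysed here. Alternatives were quantile normalization, scaling to ribosomal proteins or to the median, a floor at the 25th percentile, a 2.0-fold threshold, 12 h or 6 h alone, and the median over the probe sets of a gene. For the number of stabilized genes, the last of these instead counted genes with at least as many probe sets stabilized as not. Dapk1 was counted in this way although its median log2 stabilization was 0.89.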

Additional observations from a re-analysis of the deposited data

Results flagged for a closer look

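Dapk2 and the brighter Dapk3 probe set had a sign of the CNOT3KD over control difference after Act. D that was opposite to that at 0 h, and with 1 array per condition the difference between times was not tested. For Dapk2 (1451453_at) the log2 ratio was 0.37 at 0 h and -0.04 at 12 h, on a signal below the array median, and the 12 h value became 0.30 with quantile normalization, 0.24 with median scaling and 0.83 with ribosomal protein scaling, so the opposite sign was not seen under these. For Dapk3 (1423446_at) it was -0.001 at 0 h, 0.20 at 6 h and 0.68 at 12 h, and the 0 h value became 0.05 with quantile normalization, 0.09 with median scaling and 0.16 with ribosomal protein scaling, and all 3 times then had the same sign with median scaling (0.19 at 6 h and 0.96 at 12 h) and with ribosomal protein scaling (0.90 and 1.56).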

How the results depend on the processing

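The number of member probe sets more than 1.5-fold higher at 0 h was 5 and became 3 with a 2.0-fold threshold. The number of stabilized member genes was 2 and became 1 with quantile normalization, where Dapk1 no longer met the rule at 6 h. There 50.2% was left in control and 88.0% in CNOT3KD MEFs, less than 2.0 times as much. Why this scaling moved the 6 h values was not tested. The other counts over the members that were rerun stayed within 1.5 times their value or at 0 under the alternatives. The counts of probe sets both higher and stabilized, and of dim ones that were higher, were not rerun. Dapk1 1426915_at would leave the former with quantile normalization. Dapk3 1456496_at would leave the latter with the 2.0-fold threshold. No value that had passed a rule changed sign under the alternatives run. Values that had passed none did: with ribosomal protein scaling the log2 stabilization became 0.31 for Dapk1 1427358_a_at, 0.36 for Dapk2 and 0.26 for Dapk3 1456496_at, and the log2 folds at 0 h became 0.16 for Dapk3 1423446_at and 0.13 and 0.08 for Dap. That scaling moved all 11 log2 stabilization values, to between -1.44 and 4.89 (Stk17b 1430165_at and 1450997_at), and the share of higher among all probe sets more than 1.5-fold different was 58.2% with it and 45.7% without. It raised the number of all stabilized probe sets from 2003 to 4760 and lowered the exchanged ones from 193 to 20. A floor at the 25th percentile brought Stk17b 1430165_at to -1.19, and the median over the probe sets of a gene gave a log2 fold of 0.35 for Stk17b and a log2 stabilization of 0.89 for Dapk1. The use of 6 h alone was chosen after seeing the data. No paired analysis was possible because each group has 1 array. Signals near background limit the values of Dapk1 1426915_at in control and Stk17b 1430165_at in CNOT3KD MEFs at 12 h.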
